A study of Mus musculus with 4 samples.

Results

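Aquaporins are channel proteins of cell membranes, and 10 aquaporin genes, Aqp1 to Aqp9 and Aqp11, were examined among the 20193 genes named in a mouse expression array study. They were chosen by gene symbol, and the set was proposed with the difference between these same arrays already known, so their values are given as a description and not as a test. The study used C2C12 cells, a mouse myoblast line, transfected by lipofection with the plasmid pcDNA3.1/Zeo(+) and selected with Zeocin. One group was a polyclonal line that carried Myolinc, a long noncoding RNA, in that plasmid (2 arrays, called the Myolinc line here), and the controls carried the empty plasmid (2 arrays, called empty vector). All cells were grown in serum-rich growth medium, so the controls shared the plasmid, the drug selection and the undifferentiated state. The labels name 1 drug-selected population per group, so the effect of Myolinc in the plasmid and that of the population cannot be told apart.

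Aquaporins let water cross membranes along osmotic gradients, and the members called aquaglyceroporins also pass glycerol. In muscle the family is known mainly for Aqp4, which sits in the membrane of fast fibres and is held there by the dystrophin complex, and for Aqp1 in the capillaries. Aqp5 is best known from salivary and lacrimal glands, airway and alveolar epithelium and the cornea.

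Values are log2 expression made with robust multi-array averaging (RMA), so a difference of 1 is a doubling of signal, and errors are SD over the 2 arrays of a group or the moderated SE of the difference. The array medians lay between 7.236 and 7.347 over 28944 probe sets. As a scale of low signal, 1037 olfactory receptor genes had medians of 4.91 to 5.23 and 95th percentiles of 6.65 to 6.83 on the 4 arrays. Probe sets differ in how brightly they bind, so this scale describes readings and does not order the genes by abundance. The myoblast identity of the cells was read from 12 marker genes. Of these 11 read above the 95th percentile of the olfactory receptor genes on all arrays, among them Myod1, Myf5 and Des, and the remaining gene, Myog, which comes on at differentiation, did so on no array.

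The promoter sequence of the members that differed most is shown because both, Aqp5 and Aqp1, were lower in the Myolinc line. Each line gives the 250 bases before the RefSeq gene start in the GRCm38.p6 build, on the plus strand, 5′ to 3′. Capitals mark the E-box (CANNTG), a short element bound by basic helix-loop-helix factors. Which of these factors bind the marked sites was not tested. The Aqp5 window is chr15:99590778-99591027 and the Aqp1 window is chr6:55336049-55336298.
Aqp5: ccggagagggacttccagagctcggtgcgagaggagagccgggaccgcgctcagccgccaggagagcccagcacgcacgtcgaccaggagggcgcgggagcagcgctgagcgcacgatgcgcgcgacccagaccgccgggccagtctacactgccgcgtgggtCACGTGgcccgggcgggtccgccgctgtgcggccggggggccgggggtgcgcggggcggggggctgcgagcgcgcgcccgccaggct
Aqp1: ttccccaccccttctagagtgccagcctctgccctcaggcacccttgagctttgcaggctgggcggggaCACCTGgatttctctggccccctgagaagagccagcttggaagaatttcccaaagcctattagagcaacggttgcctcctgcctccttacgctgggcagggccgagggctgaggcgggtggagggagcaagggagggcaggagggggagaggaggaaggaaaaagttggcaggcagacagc

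The Aqp5 window was GC-rich, with a GC content of 78.4% and 38 CpG dinucleotides, and the Aqp1 window had 62.0% and 5. Over all 32851 such windows the median GC content was 52.4% and the median number of CpG was 6. Among the 9 members with a window in the RefSeq table, GC content ran from 40.4% for Aqp9 to 78.4% for Aqp5, and Aqp11 had the next highest number of CpG after Aqp5, 23. Aqp7 and Aqp9 had 2 windows each, and only the first of each was read. Both strands were searched for 6 short motifs. The E-box (CANNTG) occurred once in each printed window, starting 87 bases before the gene start in Aqp5 and 181 bases before it in Aqp1, and 66.2% of all windows held it. The GC box (GGGCGG) occurred 2 times in the Aqp5 window and once in the Aqp1 window, and 32.7% of all windows held it, with no overlap between E-box and GC box in either window. The TATA box (TATAAA), the CCAAT box (CCAAT), the M-CAT element (CATTCC) and the AP-1 element (TGANTCA) were not in either window, and 12.4%, 33.8%, 12.6% and 6.75% of all windows held them. The sequences share the E-box pattern and the GC box letters, which many promoters hold. The E-box letters themselves differ, CACGTG in Aqp5 and CACCTG in Aqp1.

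Aqp5 stood out from the other members. It read 8.34 and 8.38 on the Myolinc line arrays, against 11.59 and 11.47 on the empty vector arrays. Both Myolinc line arrays were thus far below both empty vector arrays, and the gap between the groups was 3.08 whereas arrays of the same group differed by at most 0.12. The difference in means, Myolinc line minus empty vector, was -3.17 (SE 0.07), an 8.99-fold lower signal, and it was the 3rd lowest of the differences of all 20193 genes. Even so, Aqp5 read above the 95th percentile of the olfactory receptor genes on all 4 arrays. Because probe sets differ in brightness, this cannot show whether its Myolinc line readings were above the background of its own probe set. The arrays measured RNA from whole cultures, in which fewer cells with Aqp5 RNA and less of it per cell cannot be told apart.

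Aqp1, the water channel of red blood cells, capillaries and kidney proximal tubule, was the other member with a large difference. It read 8.27 and 8.29 in the Myolinc line, against 9.32 and 9.29 in empty vector cells. The arrays of a group lay within 0.02 of each other and the groups lay 1.01 apart. The difference was -1.03 (SE 0.06), a 2.04-fold lower signal. Aqp1 read above the low-signal scale on all arrays.

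**Figure D1:**
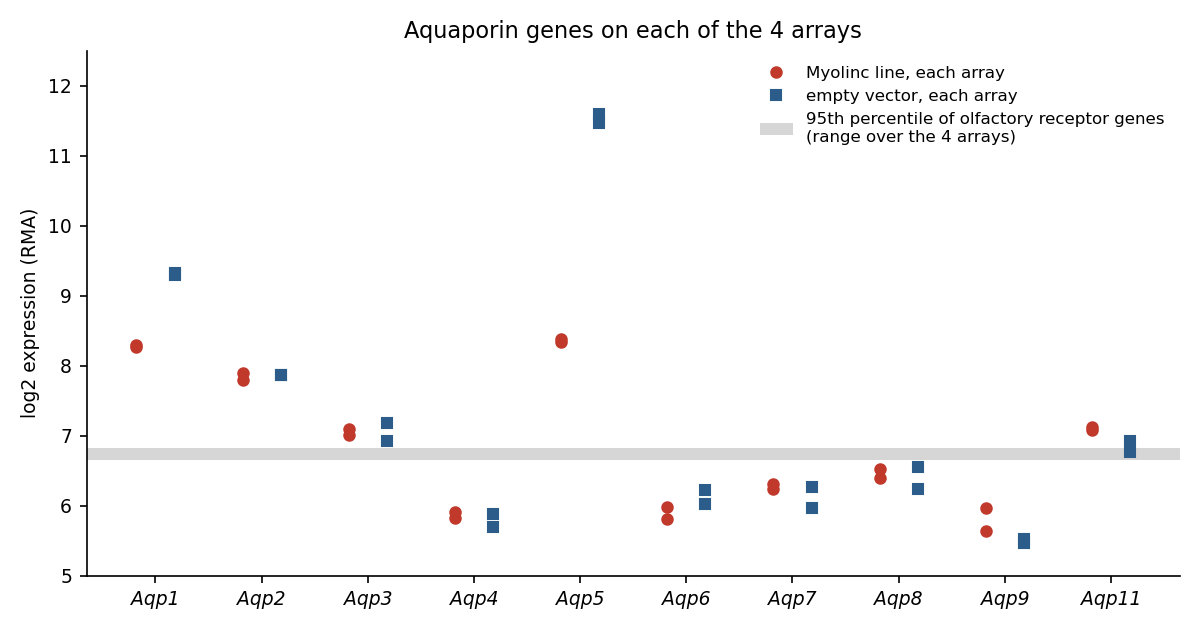
Log2 expression (RMA, vertical axis) of the 10 aquaporin genes on each array, with Myolinc line arrays as circles on the left and empty vector arrays as squares on the right of each gene; the grey band spans the 95th percentiles of 1037 olfactory receptor genes, 6.65 to 6.83. Aqp5 at 8.34 and 8.38 and Aqp1 at 8.27 and 8.29 in the Myolinc line lie clearly below their empty vector arrays, while Aqp4, Aqp6, Aqp7, Aqp8 and Aqp9 lie below the band throughout.

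The other members outside the aquaglyceroporins and Aqp11 showed no such gap. Aqp2, which vasopressin brings to the surface of kidney collecting duct cells, read 7.89 and 7.80 in the Myolinc line, against 7.86 and 7.87 in empty vector cells, and the groups overlapped (difference -0.02, SE 0.06). Aqp4, the channel of muscle fibres and of astrocyte endfeet, read 5.91 and 5.83, against 5.88 and 5.70 in empty vector cells (difference 0.08, SE 0.09). Those Aqp4 readings lay within the range of the olfactory receptor genes on every array, so the channel typical of mature muscle gave no signal above that scale in either group. Aqp6, which in kidney resides in intracellular vesicles and conducts anions, read 5.98 and 5.81 in the Myolinc line, against 6.23 and 6.03 in empty vector cells (difference -0.24, SE 0.11). The Aqp6 groups did not overlap, but the gap of 0.05 was smaller than the 0.20 between the empty vector arrays. Aqp8, a channel that also passes ammonia and hydrogen peroxide, read 6.40 and 6.52, against 6.55 and 6.24 in empty vector cells, with overlap (difference 0.07, SE 0.13).

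The aquaglyceroporins likewise differed little. Aqp3, found in skin and in the basolateral membrane of many epithelia, read 7.10 and 7.01 in the Myolinc line, against 7.18 and 6.92 in empty vector cells (difference 0.01, SE 0.11). The Aqp3 groups overlapped, and all 4 readings were above the low-signal scale. Aqp7, the glycerol channel of fat cells, read 6.31 and 6.24, against 6.27 and 5.96 in empty vector cells, with overlap (difference 0.16, SE 0.12). Aqp9, the glycerol channel of liver cells, read 5.96 and 5.64, against 5.46 and 5.53 in empty vector cells (difference 0.30, SE 0.13). Its groups did not overlap, with a gap of 0.10 and 0.33 between the Myolinc line arrays. Aqp7 and Aqp9 read within the range of the olfactory receptor genes on all arrays.

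Aqp11, a divergent member that resides in the endoplasmic reticulum, read 7.13 and 7.08 in the Myolinc line, against 6.77 and 6.93 in empty vector cells. Both Myolinc line arrays were higher, by a gap of 0.15, close to the 0.16 between the empty vector arrays (difference 0.25, SE 0.08). It exceeded the low-signal scale on 3 of 4 arrays. The arrays of the groups thus did not overlap for 5 members, Aqp1, Aqp5, Aqp6, Aqp9 and Aqp11, and did for 5. Over all genes the arrays did not overlap for 53.9%.

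**Figure D2:**
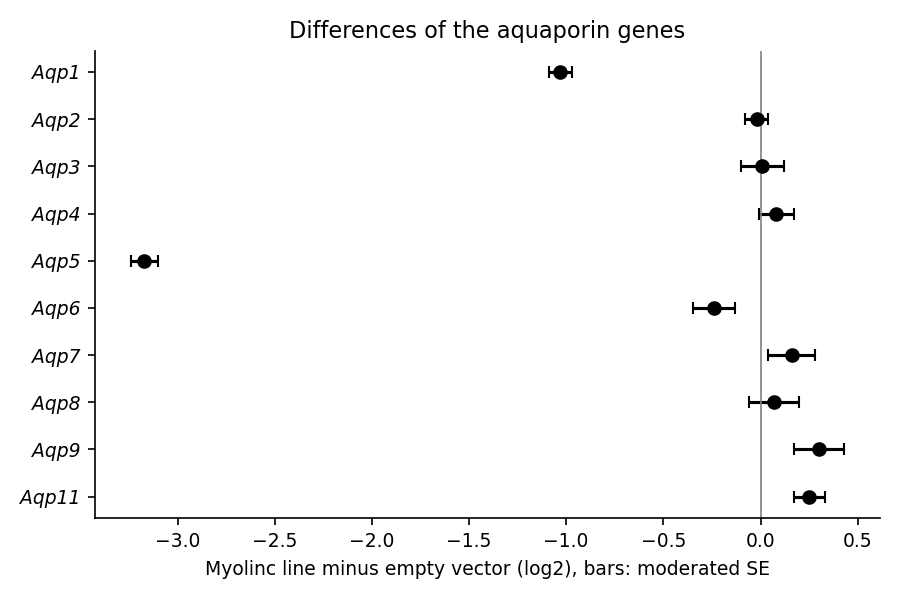
Difference in log2 expression, Myolinc line minus empty vector (horizontal axis), for each aquaporin gene, with bars for the moderated SE. Aqp5 at -3.17 and Aqp1 at -1.03 lie apart from the other 8 genes, which lie between -0.24 and 0.30.

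In a limma fit over the whole table, 2 of the 10 members, Aqp5 and Aqp1, were past an adjusted p of 0.05, both lower. Of all genes 9.26% were past it, 4.61% higher and 4.65% lower. Because the members were proposed from this contrast, nothing is read from that comparison. The median difference was 0.04 over the members and 0.02 over all genes. With empty vector replicate 1 or replicate 2 left out, limma put 0 genes of the whole table past the threshold, while 3639 and 3322 had an unadjusted p under 0.05. The Aqp5 difference was then -3.11 and -3.23 and the Aqp1 difference -1.02 and -1.04. The authors' deposited table gives log2 fold changes of -3.168 for Aqp5 and -1.028 for Aqp1. Of the remaining family genes on the array, Mip, the lens fibre channel also called aquaporin 0, had a difference of 0.01 (SE 0.07), and Aqp12, a pancreatic acinar member, had 0.12 (SE 0.07).

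The genes beside the aquaporins on the chromosome were then examined, because Aqp2, Aqp5 and Aqp6 follow one another on chromosome 15. The gene on either side of Aqp5 is itself an aquaporin, and the values above show neither Aqp2 nor Aqp6 with a difference near that of Aqp5. Before Aqp2 lie Faim2 (-0.03, SE 0.11) and Bcdin3d (0.17, SE 0.06), and after Aqp6 lie Racgap1, a cytokinesis gene (-0.06, SE 0.06), and the acid-sensing channel gene Accn2 (0.06, SE 0.09). None of these neighbours passed, with adjusted p from 0.167 to 0.927 in limma, and 1 of them, Bcdin3d, had an unadjusted p under 0.05. Beyond Bcdin3d, Nckap5l (0.58, SE 0.07, limma adjusted p = 0.0257) and Tmbim6 (0.36, SE 0.06, limma adjusted p = 0.0379) rose. Around Aqp1 on chromosome 6, the adjusted p of the hormone receptor genes Ghrhr and Adcyap1r1 were 0.658 and 0.990, with differences of 0.11 (SE 0.12) and under 0.01 in size (SE 0.10). On the other side of Aqp1, Fam188b and the methyltransferase gene Inmt had differences of 0.03 (SE 0.07) and 0.03 (SE 0.08).

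Counting the 2 measured genes on each side of every member gave 28 genes, of which 1 rose and 2 fell (10.7% of them, against 9.26% of all genes). Pak1, a kinase gene beside Aqp11, rose by 0.50 (SE 0.06, limma adjusted p = 0.0268). Nol6, a nucleolar gene beside Aqp3, fell by 0.48 (SE 0.06, limma adjusted p = 0.0286). Taf4b, a TFIID subunit gene near Aqp4, fell by 0.53 (SE 0.08, limma adjusted p = 0.0385). With 1 array left out, the differences ran from 0.463 to 0.541 for Pak1, -0.514 to -0.442 for Nol6 and -0.624 to -0.441 for Taf4b. Fewer of the 28, and of all genes, passed in each such fit.

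**Figure D3:**
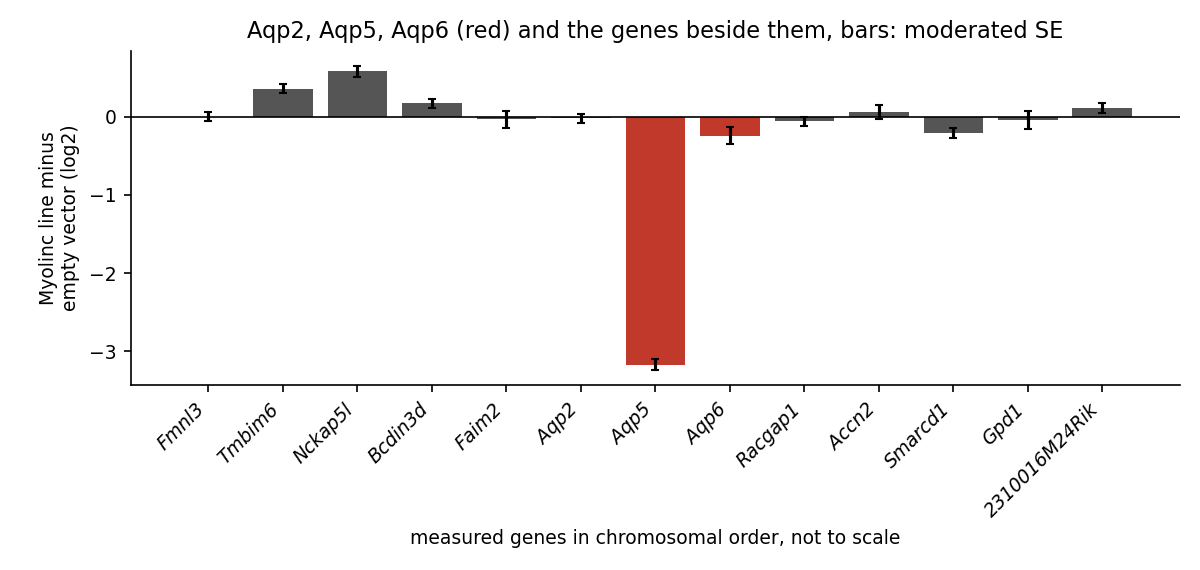
Difference in log2 expression, Myolinc line minus empty vector (vertical axis), for 13 measured genes in chromosomal order around Aqp5 on chromosome 15, not to scale, with bars for the moderated SE and aquaporin genes in red. Aqp5 at -3.17 stands beside Aqp2 at -0.02 and Aqp6 at -0.24, and of the other genes Nckap5l at 0.58 and Tmbim6 at 0.36 passed an adjusted p of 0.05 in limma.

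Genes of aquaporin anchoring and trafficking, with some receptor, channel and kinase genes, were taken as a list of 22, of which 19 were measured. The vasopressin receptor gene Avpr2 was among those not measured. Of the 19 measured genes 4 rose and 1 fell (26.3% of them, against 9.26% of all genes), and the median difference was 0.13, against 0.02 over all genes. With the fit limited to probe sets at or above the median level, 6 of 11 passed in limma, against 41.3% of all genes tested. Sntb1, the beta-1 syntrophin of the dystrophin complex, read 9.44 and 9.58 in the Myolinc line, against 7.36 and 7.57 in empty vector cells, and rose by 2.05 (SE 0.11, limma adjusted p = 0.00741). Dtna, a dystrobrevin gene of the same complex, rose by 0.64 (SE 0.08, limma adjusted p = 0.0243). Those are scaffold genes of muscle membrane, whereas Dag1, dystroglycan of the same complex, had a difference of 0.05 (SE 0.06, limma adjusted p = 0.673).

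Avpr1a, a vasopressin receptor gene, read 7.02 and 6.82, against 6.16 and 6.32 in empty vector cells, and rose by 0.68 (SE 0.11, limma adjusted p = 0.0374). Its empty vector readings lay within the low-signal range. Vta1, also called LIP5, which takes part in the endosomal sorting of Aqp2, rose by 0.38 (SE 0.07, limma adjusted p = 0.0463). Sgk1, a kinase gene induced by osmotic stress and glucocorticoids, fell to 9.80 and 9.76 in the Myolinc line, against 10.40 and 10.45 in empty vector cells (difference -0.64, SE 0.06, limma adjusted p = 0.0181). With 1 array left out, the differences ran from 1.94 to 2.15 for Sntb1, 0.576 to 0.71 for Dtna and 0.578 to 0.781 for Avpr1a. For Vta1 they ran from 0.342 to 0.417 and for Sgk1 from -0.669 to -0.617. Fewer of the 19, and of all genes, passed in each such fit.

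Cells answer a change in volume with organic osmolytes and ion channels, and 36 of 38 genes of that response were measured. Of these 4 rose and 5 fell (25.0% of them, against 9.26% of all genes), and the median difference was -0.13. With the fit limited to probe sets at or above the median level, 13 of 26 passed in limma, against 41.3% of all genes tested. Slc5a3, the myo-inositol transporter gene, read 9.01 and 9.18 in the Myolinc line, against 9.71 and 9.82 in empty vector cells, and fell by 0.67 (SE 0.09, limma adjusted p = 0.0282). Hspa4l, a chaperone gene also called Osp94, fell by 0.59 (SE 0.08, limma adjusted p = 0.0301). Nfat5, the transcription factor of the hypertonic response, had -0.42 (SE 0.12, limma adjusted p = 0.118), and the taurine transporter gene Slc6a6 had -0.18 (SE 0.06, limma adjusted p = 0.143). Akr1b8, an aldose reductase-like gene, rose by 0.39 (SE 0.06, limma adjusted p = 0.0364).

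The ion transport genes of the list went both ways. Slc12a2, the sodium-potassium-chloride cotransporter NKCC1 that loads chloride in secretory glands, read 9.01 and 8.99, against 9.63 and 9.67 in empty vector cells, and fell by 0.66 (SE 0.06, limma adjusted p = 0.0163). Ano1, the calcium-activated chloride channel gene of the same glands, read 6.30 and 6.54, against 7.41 and 7.48 in empty vector cells, and fell by 1.02 (SE 0.10, limma adjusted p = 0.0196). Its Myolinc line readings lay in the low-signal range. Among the subunits of the volume-regulated anion channel, Lrrc8a, the obligatory one, fell by 0.46 (SE 0.06, limma adjusted p = 0.0286), while Lrrc8b rose by 0.74 (SE 0.07, limma adjusted p = 0.0168) and Lrrc8d by 0.48 (SE 0.06, limma adjusted p = 0.0258). Lrrc8c had 0.11 (SE 0.06) and Lrrc8e 0.02 (SE 0.06), neither past the threshold. Cftr, a chloride channel gene, rose by 0.82 (SE 0.13, limma adjusted p = 0.0371), with all 4 readings, from 5.05 to 6.10, in the low-signal range. With 1 array left out, every gene of this list past the threshold kept its sign. The differences ran, for example, from -1.14 to -0.904 for Ano1 and from 0.678 to 0.965 for Cftr. Fewer of the 36, and of all genes, passed in each such fit.

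Glycerol, the second cargo of the aquaglyceroporins, is made by lipolysis and used by glycerol kinase. Of 22 measured genes of glycerol handling 2 rose and 2 fell (18.2% of them, against 9.26% of all genes), with a median difference of 0.03. Gyk, glycerol kinase, read 7.85 and 7.86 in the Myolinc line, against 8.47 and 8.56 in empty vector cells, and fell by 0.66 (SE 0.06, limma adjusted p = 0.0190). Gpd1l, a glycerol-3-phosphate dehydrogenase-like gene, fell by 0.38 (SE 0.06, limma adjusted p = 0.0359). The lipase genes Lpl (1.57, SE 0.12, limma adjusted p = 0.0141) and Lipe (0.39, SE 0.06, limma adjusted p = 0.0374) rose. Lpl read 7.73 and 7.61 in the Myolinc line, against 6.25 and 5.95 in empty vector cells, and the empty vector readings lay in the low-signal range. With 1 array left out, the differences ran from -0.706 to -0.617 for Gyk and from -0.406 to -0.361 for Gpd1l. For Lpl they ran from 1.42 to 1.71 and for Lipe from 0.354 to 0.421. Fewer of the 22, and of all genes, passed in each such fit.

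**Figure D4:**
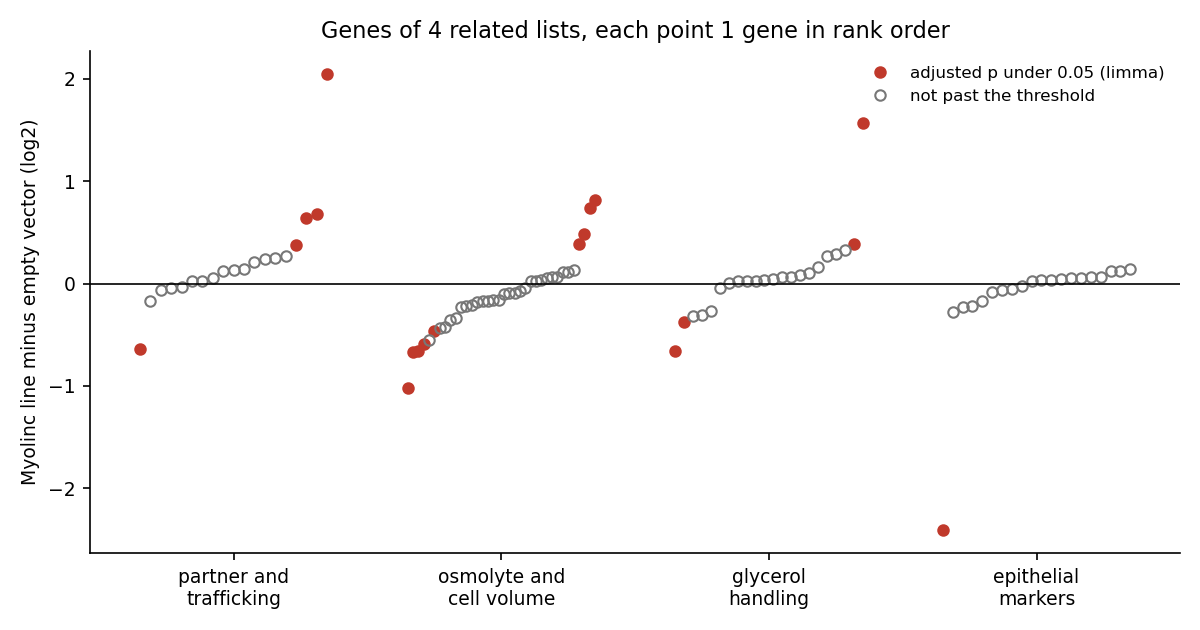
Difference in log2 expression, Myolinc line minus empty vector (vertical axis), for every measured gene of 4 lists in rank order; filled points passed an adjusted p of 0.05 in limma and open points did not. The extremes are Sntb1 at 2.05 and Lpl at 1.57 on the upper side and Krt14 at -2.41 and Ano1 at -1.02 on the lower side; Lpl in empty vector cells, and Krt14 and Ano1 in the Myolinc line, read in the low-signal range.

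Because Aqp5 is mainly known from epithelia, epithelial markers were read beside it. Of 20 measured markers 1 fell (5.0% of them, against 9.26% of all genes past the threshold, 4.65% lower), and the median difference was 0.02, the same as over all genes, with 11 of the 20 positive. The marker that fell was the basal keratin gene Krt14, which read 6.57 and 6.53 in the Myolinc line, against 8.93 and 8.98 in empty vector cells (difference -2.41, SE 0.06, limma adjusted p = 0.00264). Its Myolinc line readings lay in the low-signal range. Epcam (5.69 and 5.55, against 5.62 and 5.50 in empty vector cells) and Cdh1 (6.50 and 6.54, against 6.57 and 6.42) read in the low-signal range on all arrays, as did 10 of the 20 markers, and 7 of the 20 read above it on all arrays. The mean reading of the list, Krt14 included, was 6.58 and 6.52 in the Myolinc line, against 6.73 and 6.65 in empty vector cells. With 1 array left out, the Krt14 difference ran from -2.43 to -2.38. Whether the Krt14 difference has a part in that of Aqp5 was not tested.

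Of 30 measured markers of endothelium, red cells, fat cells and liver, the tissues where Aqp1, Aqp7 and Aqp9 are best known, 0 passed in limma, against 9.26% of all genes, with 2 at an unadjusted p under 0.05. Many of them read in the low-signal range on all arrays, which limits what the count can show. These were 5 of 10 endothelial, 3 of 5 red cell, 4 of 8 fat cell and 6 of 7 liver markers. Of 6 astrocyte markers 1 passed (16.7% of them), and 5 read in the low-signal range on all arrays. The connexin gene Gja1, which myoblasts also express, rose by 0.64 (SE 0.06, limma adjusted p = 0.0166). Of the 12 myoblast markers 5 rose, among them Itga7, Cdh15, Myf5 and Des (41.7% of them, against 9.26% of all genes). However, 11 of the 12 read above the low-signal scale on all arrays. With the fit limited to probe sets at or above the median level, 41.3% of all genes tested passed. The other 7 markers did not pass, and 2 of them, Pax7 (-0.21, SE 0.14) and Fgfr4 (-0.14, SE 0.06), had negative differences. The mean reading of the list was 10.21 and 10.20 in the Myolinc line, against 9.93 and 9.92 in empty vector cells. The part of these marker differences in those of the aquaporins was not tested.

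The genes most like Aqp5 and Aqp1 were found by the Euclidean distance between log2 values over the 4 arrays, each gene centred on its own mean. The 5 nearest to Aqp5 were F3, Lce1h, Stmn2, Grem1 and Edn1, at distances of 0.40 to 0.61. Each of them was lower in the Myolinc line, by 2.58 to 2.79 on the log2 scale, which follows from a choice by distance to Aqp5. The 5 nearest to Aqp1 were Hmox1, Tinagl1, Banp, Itgb7 and Dnajb1, at distances of 0.03 to 0.07. Hmox1, which encodes the haem-degrading enzyme heme oxygenase 1, read 10.24 and 10.28 in the Myolinc line, against 11.28 and 11.28 in empty vector cells. Tinagl1, a matrix protein gene, read 8.07 and 8.12, against 9.19 and 9.13 in empty vector cells. These are descriptions of the same 4 arrays.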

How the data were processed

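RNA from C2C12 cells was hybridised to 4 arrays, labelled with biotin by the Affymetrix protocol, per the labels' protocols. The deposited log2 values were made by the authors with RMA, and the submitters' processing notes name RMA and limma. Their versions, the annotation, the genome build and any filters: not given in the sources used here. Per the file headers, the deposited workbook adds the authors' own log2 fold changes and p-values, and those p-values were not used. Of 35556 rows, 6612 with the lowest numbers and no symbol were taken as controls and left out. The remaining 28944 probe sets were fitted with limma 3.58.1 in R 4.3.3 (lmFit, eBayes, 2 residual and 2.18 prior degrees of freedom), two-sided, and p was adjusted (Benjamini-Hochberg) over the 20193 genes with a symbol, 1 probe set each. The fit was tested on simulated data. Symbols matched a RefSeq gene of GRCm38.p6 for 19429 genes, directly or by 1 synonym, and 764 did not; RefSeq served for gene order and promoter windows, credited to that build. Figures were drawn with matplotlib 3.10.9.

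With 2 arrays a group an exact permutation test cannot go below 0.333, so tests come from the fit over the whole table. No label ties the replicates, named biological, to separate cultures or transfections. The p-values therefore measure the spread between arrays alone, possibly a technical one, and the number of arrays limits the precision. The members and lists were chosen with earlier results of these data known. Lists covered aquaporin partners, osmolyte and cell volume genes, glycerol handling, chromosomal neighbours, and markers of epithelium, endothelium, red cells, fat cells, liver, astrocytes and myoblasts. Named were all members, the neighbours of each member past the threshold, the list genes past it except any not reported here, and the 5 likest genes of each member past it; Dag1, Nfat5, Slc6a6, Lrrc8c, Lrrc8e, Epcam, Cdh1, Nckap5l and Tmbim6 were added after their values were seen. The other list genes are given only as counts, medians and mean levels. The alternatives tried are given in the closing section.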

Additional observations from a re-analysis of the deposited data

How the results depend on the processing

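Aqp5 and Aqp1 were past the threshold in 9 of 11 other settings and kept their sign in all 11, with differences between -3.23 and -3.11 and between -1.07 and -1.02; the exceptions left out an empty vector array. Aqp2, Aqp4 and Aqp8 changed sign in 1 setting each and Aqp3 in 4, all at differences near 0. The replicate numbers are shared by the groups but no label says what they mark, and same-numbered arrays had a correlation of 0.215 between their deviations over probe sets. With a replicate block, 2 members passed, and 1 partner and trafficking gene, 1 osmolyte and cell volume gene, 1 glycerol gene and 0 neighbours did in limma, with 6 neighbours at an unadjusted p under 0.05. Over all genes 362 passed with the block, against 1870 without it. A trended and robust variance gave 16 osmolyte and cell volume genes, 9 glycerol genes and 6 neighbours, while 21.5% of all genes passed, against 9.26% in the fit reported. With the fit limited to probe sets at or above the median level, 41.3% of the 10523 genes tested passed. Of the genes that remained, 6 of 11 partner and trafficking genes and 13 of 26 osmolyte and cell volume genes passed. So did 10 of 16 glycerol genes, 2 of 4 epithelial markers and 7 of 17 neighbours. With the control range kept there were 3 partner and trafficking genes, 4 osmolyte and cell volume genes, 2 glycerol genes and 1 neighbour, with 4.39% of all genes past the threshold. The cause of these shifts was not tested. Leaving out 1 array gave 0 to 2 members, 0 to 4 partner genes, 0 to 8 osmolyte and cell volume genes, 0 to 2 glycerol genes, 0 to 1 epithelial markers and 0 neighbours. Signs turned at differences near 0: with a further quantile normalization Fam188b had -0.0174, Inmt -0.0349 and Mip -0.0485, and with arrays centred on their medians Fam188b had -0.0132, Inmt -0.0147 and Mip -0.0352. With 1 array left out, signs also turned, over ranges of -0.0166 to 0.144 for Accn2, -0.101 to 0.0943 for Adcyap1r1, -0.128 to 0.0763 for Faim2, -0.0199 to 0.0768 for Fam188b, -0.00275 to 0.222 for Ghrhr, -0.058 to 0.112 for Inmt and -0.0576 to 0.0706 for Mip. Signal near that of the olfactory receptor genes limits what can be said of Aqp4, Aqp6, Aqp7, Aqp8 and Aqp9.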
